A study of Mus musculus with 154 samples.

Results

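The 4 genes described here encode the enzymes that carry gluconeogenesis past the irreversible steps of glycolysis: Pcx, Pck1, Fbp1 and G6pc. They were chosen by name, not by a measured value, although earlier results of these data were known. The choice was out of 13289 genes in a table of liver read counts from 20 control, 63 single and 71 double substitution mice of 24 strains, and all 4 were in the table. Each had at least 15 reads in every mouse, so none depended on a filter on low counts.

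Gluconeogenesis is the synthesis of glucose from lactate, amino acids and glycerol, and the liver runs it during fasting to hold blood glucose. Pyruvate carboxylase, encoded by Pcx, turns pyruvate into oxaloacetate in mitochondria, and the cytosolic phosphoenolpyruvate carboxykinase of Pck1 turns oxaloacetate into phosphoenolpyruvate. Fructose-1,6-bisphosphatase, encoded by Fbp1, removes a phosphate late in the pathway, and the catalytic subunit of glucose-6-phosphatase, encoded by G6pc, releases free glucose. Glucagon, acting through cAMP, and glucocorticoids are known to raise transcription of Pck1 and G6pc in fasted liver, and insulin lowers it.

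The mice were 5 weeks old, male and fasted overnight, and each library came from the caudate lobe of 1 liver. All carried the C57BL/6J (B6) genome, and the chromosome substitution strains (CSSs) were heterozygous for 1 or 2 whole chromosomes of strain A/J, so that an effect covers every A/J variant on that chromosome. The B6 control had 20 mice. The single CSSs, named below by the A/J chromosome, were (B6.A3 x B6)F1 or A3, (B6 x B6.A4)F1 or A4, (B6 x B6.A5)F1 or A5, (B6.A6 x B6)F1 or A6, (B6 x B6.A8)F1 or A8, (B6 x B6.A10)F1 or A10, (B6.A14 x B6)F1 or A14, and (B6.A17 x B6)F1 or A17, with 8 mice each and 7 in A5. The 15 double CSSs came from crossing B6.A3, B6.A6, B6.A14 or B6.A17 females with males of B6.A4, B6.A5, B6.A8 or B6.A10. No mouse of B6.A3 with B6.A4 is in these data, a cross that the paper calls a poor breeder, like that of B6.A3 with B6.A8. A double CSS such as (B6.A14 x B6.A8)F1 is written A14:A8. The double CSSs held 3 mice in A3:A8, 4 in A6:A5, A17:A4 and A17:A10, 6 in A6:A8 and 5 in each of the other crosses. A main effect is the difference of a single CSS from B6, and an interaction is the departure of a double CSS from the sum of its 2 main effects on the log2 scale. The design asks how far the effect of one chromosome on a gene's expression depends on another.

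None of the 4 genes lies on a substituted chromosome, so every effect below acted in trans. In the mouse assembly GRCm38 with GENCODE vM21, Pck1 (ENSMUSG00000027513) spans chr2:173153048-173159273 on the plus strand, G6pc (ENSMUSG00000078650) spans chr11:101367561-101377903 on the plus strand, Pcx (ENSMUSG00000024892) spans chr19:4510472-4621752 on the plus strand and Fbp1 (ENSMUSG00000069805) spans chr13:62864753-62888282 on the minus strand. The sequence before each RefSeq start (GRCm38.p6) is shown because cAMP response elements, CCAAT boxes and TATA boxes are known elements of such promoters. Each stretch begins 250 bases before the start and ends at the last base before the GENCODE gene record or the start. Capitals mark matches to the motifs below.

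The 4 stretches, each 5′ to 3′ on the strand of its gene, are these.
Pck1 (chr2:173152823-173153047, + strand, 225 bases): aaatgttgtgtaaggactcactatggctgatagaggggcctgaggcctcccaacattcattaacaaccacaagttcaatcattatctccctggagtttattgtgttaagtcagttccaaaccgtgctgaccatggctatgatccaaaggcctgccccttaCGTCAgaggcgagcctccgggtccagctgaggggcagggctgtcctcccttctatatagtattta
G6pc (chr11:101367466-101367560, + strand, 95 bases): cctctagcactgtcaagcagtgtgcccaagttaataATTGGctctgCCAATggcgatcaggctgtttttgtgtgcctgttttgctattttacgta
Pcx (chr19:4510222-4510471, + strand, 250 bases): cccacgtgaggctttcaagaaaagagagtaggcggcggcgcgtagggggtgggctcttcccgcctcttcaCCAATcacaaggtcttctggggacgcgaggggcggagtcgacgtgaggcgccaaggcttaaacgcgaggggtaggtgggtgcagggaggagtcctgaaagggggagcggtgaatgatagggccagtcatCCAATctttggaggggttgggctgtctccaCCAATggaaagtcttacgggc
Fbp1 (chr13:62888283-62888532, - strand, 250 bases): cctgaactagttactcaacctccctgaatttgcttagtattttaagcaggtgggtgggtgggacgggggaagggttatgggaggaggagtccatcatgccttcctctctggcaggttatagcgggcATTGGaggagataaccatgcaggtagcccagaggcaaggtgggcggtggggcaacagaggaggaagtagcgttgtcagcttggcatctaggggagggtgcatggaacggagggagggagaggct

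Both strands of a window around each start (250 bases before and 50 after) were searched for 5 motifs in 32851 RefSeq promoters. The core TGACG of the cAMP response element was in the Pck1 window alone among the 5 windows of the members (Pcx has 2 RefSeq starts), on the minus strand with its first base at -90, and in 20.81% of all promoters. CCAAT matched in G6pc at -214 and -204, in Pcx at -180, -51 and -21, and in Fbp1 at -124, against 37.41% of all promoters. TATAAA, found in 13.62% of promoters, lay at -29 in G6pc, beyond the stretch shown. Neither TGACGTCA (1.79% of promoters) nor the forkhead element TGTTTAC (3.65%) occurred in these windows. A match describes letters in a window and is no evidence that a factor binds there.

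Each mouse had between 4638701 and 30465477 counts in all, and the 4 genes had between 1271 and 127218 counts in every mouse, so that counting error was small beside the spread between mice. CPM are counts scaled to the TMM-normalised size of the library. One mouse, A14:A4 replicate 3, from a study of males, had 2.94 CPM over 4 Y-linked genes, against 228 to 432 in the others, and was kept as labelled. Without it, Pcx and Fbp1 in A14:A4 kept their calls against B6. Replicates of a strain are separate mice, and no pair of the same strain differed by as little as sampling noise would give.

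The 4 mRNAs were abundant in B6 liver. Per kilobase of exon, which allows levels of different genes to be compared, the B6 mean ± SD over 20 mice was 1108 ± 260.2 CPM for Pck1. The B6 means were 589.6 ± 60.7 CPM per kilobase for Fbp1, 179.5 ± 65.9 for G6pc and 106 ± 18.2 for Pcx. Mice of the same strain differed most in G6pc. The SD within strains, pooled over all 24, was 0.48 on the log2 CPM scale for G6pc, 0.32 for Pck1, 0.27 for Pcx and 0.17 for Fbp1. Among the 829 genes whose log2 CPM averaged 7 or more, 95.2% had a smaller SD within strains than G6pc, and 46.8% had a smaller one than Fbp1. Differences between strains held 52.3% of the variance of log2 CPM for Fbp1, 50.5% for Pcx, 27.5% for Pck1 and 23.8% for G6pc, a description that includes the share that sampling of mice alone gives.

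**Figure D1:**
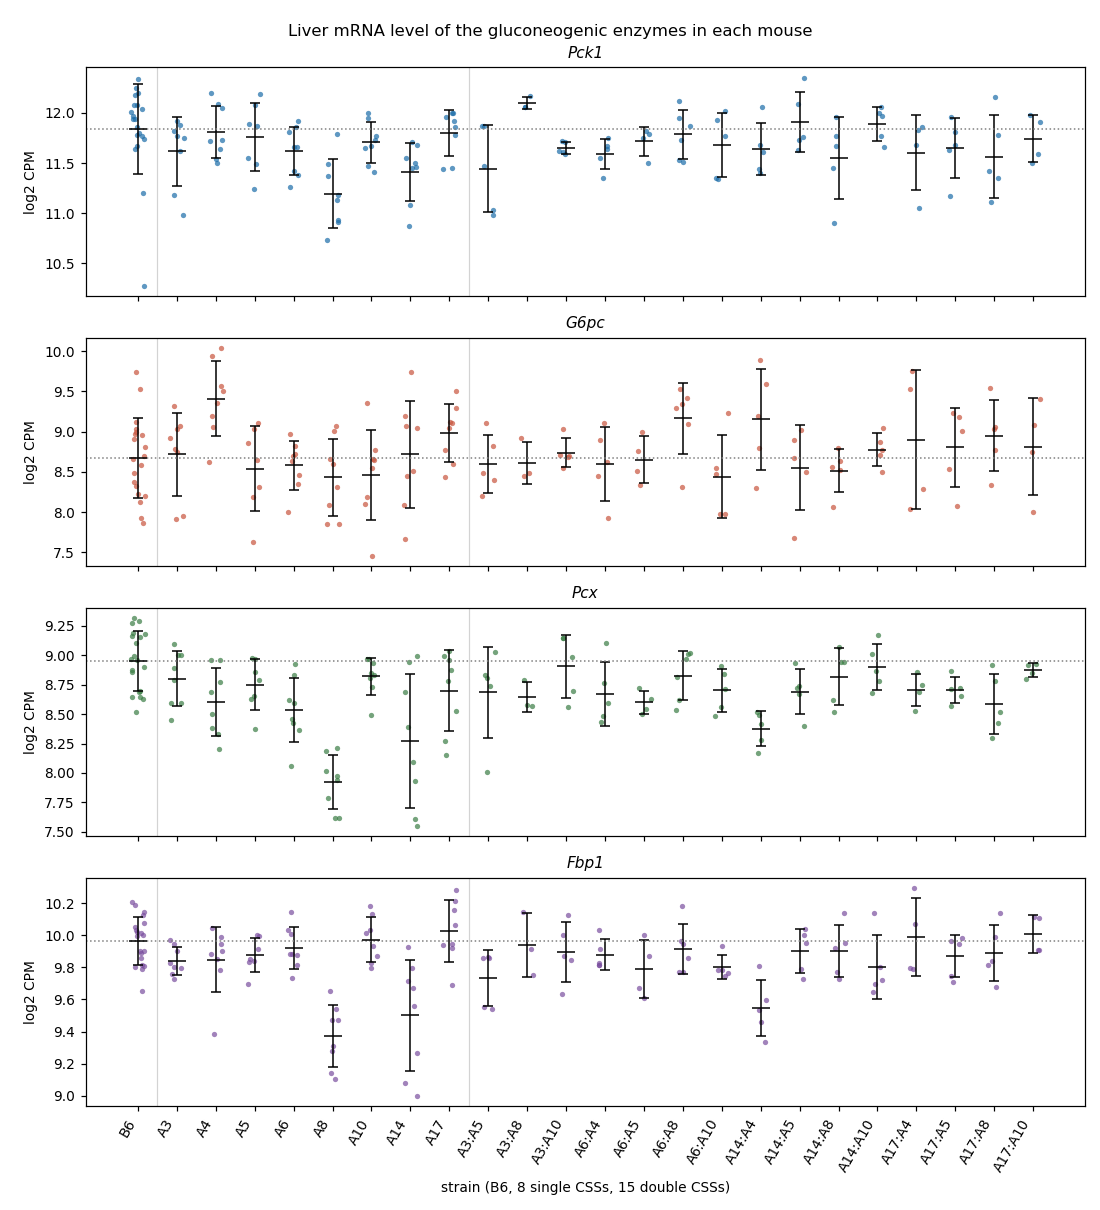
Log2 CPM (y axis) of each gene in each mouse, by strain (x axis). Each point is 1 mouse, the black bars are the strain mean ± SD and the dotted line is the B6 mean. A8 has the lowest mean for all 4 genes, and the A14 mice spread over most of the range of Pcx, from 7.55 to 8.99.

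A8 was the strain with the lowest mean for every one of the 4 genes, in log2 CPM before any adjustment. For Pcx, the order of the strain means ± SD began with 7.92 ± 0.23 in A8, 8.27 ± 0.57 in A14, 8.38 ± 0.15 in A14:A4, 8.53 ± 0.27 in A6, 8.59 ± 0.25 in A17:A8 and 8.60 ± 0.29 in A4. The means then ran through 8.60 ± 0.097 in A6:A5, 8.65 ± 0.13 in A3:A8, 8.67 ± 0.27 in A6:A4, 8.68 ± 0.39 in A3:A5, 8.69 ± 0.19 in A14:A5 and 8.70 ± 0.34 in A17. B6 stood at the top, above all 23 CSSs. The upper part of the order was 8.70 ± 0.18 in A6:A10, 8.70 ± 0.11 in A17:A5, 8.70 ± 0.14 in A17:A4, 8.75 ± 0.22 in A5, 8.80 ± 0.23 in A3 and 8.82 ± 0.24 in A14:A8, and then 8.82 ± 0.16 in A10, 8.83 ± 0.21 in A6:A8, 8.87 ± 0.060 in A17:A10, 8.90 ± 0.19 in A14:A10, 8.91 ± 0.27 in A3:A10 and 8.95 ± 0.25 in B6. None of the 23 gaps between neighbours in this order passed the larger SD of the pair, the widest being 0.35 between A8 and A14.

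Fbp1 had the narrowest range. Its order began with 9.37 ± 0.19 in A8, 9.502 ± 0.35 in A14, 9.55 ± 0.18 in A14:A4, 9.73 ± 0.17 in A3:A5, 9.79 ± 0.18 in A6:A5 and 9.80 ± 0.20 in A14:A10, followed by 9.80 ± 0.075 in A6:A10, 9.84 ± 0.089 in A3, 9.85 ± 0.20 in A4, 9.87 ± 0.13 in A17:A5, 9.88 ± 0.11 in A5 and 9.88 ± 0.095 in A6:A4. A8, A14 and A14:A4 stood apart at the low end, since the gap of 0.19 above A14:A4 was the only one of 23 that passed the larger SD of its pair. Means in the upper part were 9.89 ± 0.18 in A17:A8, 9.90 ± 0.19 in A3:A10, 9.90 ± 0.16 in A14:A8, 9.90 ± 0.14 in A14:A5, 9.92 ± 0.15 in A6:A8 and 9.92 ± 0.13 in A6, and at the top 9.94 ± 0.20 in A3:A8, 9.96 ± 0.15 in B6, 9.97 ± 0.14 in A10, 9.99 ± 0.24 in A17:A4, 10.01 ± 0.12 in A17:A10 and 10.03 ± 0.19 in A17.

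Pck1 means ran from 11.19 ± 0.35 in A8, 11.41 ± 0.29 in A14, 11.45 ± 0.43 in A3:A5, 11.55 ± 0.41 in A14:A8, 11.56 ± 0.41 in A17:A8 and 11.59 ± 0.15 in A6:A4 to 11.60 ± 0.38 in A17:A4, 11.62 ± 0.35 in A3, 11.62 ± 0.24 in A6, 11.64 ± 0.26 in A14:A4, 11.65 ± 0.30 in A17:A5 and 11.65 ± 0.060 in A3:A10 in the lower part of the order. No gap between neighbours passed their SD here either. Above them came 11.68 ± 0.32 in A6:A10, 11.71 ± 0.21 in A10, 11.72 ± 0.14 in A6:A5, 11.74 ± 0.23 in A17:A10, 11.76 ± 0.34 in A5 and 11.79 ± 0.24 in A6:A8, and then 11.80 ± 0.23 in A17, 11.81 ± 0.26 in A4, 11.84 ± 0.45 in B6, 11.89 ± 0.17 in A14:A10, 11.91 ± 0.30 in A14:A5 and 12.10 ± 0.061 in A3:A8. One B6 mouse had the lowest Pck1 value of all mice, at 10.28, and that mouse had the highest G6pc value of the B6 group, at 9.74.

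The order for G6pc differed from the others, with A4 at the top and B6 near the middle. It started with 8.43 ± 0.48 in A8, 8.44 ± 0.52 in A6:A10, 8.46 ± 0.56 in A10, 8.52 ± 0.27 in A14:A8, 8.54 ± 0.53 in A5 and 8.55 ± 0.53 in A14:A5, and continued with 8.58 ± 0.30 in A6, 8.60 ± 0.45 in A6:A4, 8.60 ± 0.36 in A3:A5, 8.61 ± 0.26 in A3:A8, 8.65 ± 0.29 in A6:A5 and 8.68 ± 0.499 in B6. The largest SDs of the 4 genes were in this order, up to 0.86 in A17:A4. The remaining means were 8.72 ± 0.52 in A3, 8.72 ± 0.67 in A14, 8.74 ± 0.18 in A3:A10, 8.78 ± 0.20 in A14:A10, 8.81 ± 0.49 in A17:A5 and 8.81 ± 0.60 in A17:A10, and 8.90 ± 0.86 in A17:A4, 8.95 ± 0.44 in A17:A8, 8.98 ± 0.36 in A17, 9.15 ± 0.63 in A14:A4, 9.16 ± 0.44 in A6:A8 and 9.41 ± 0.46 in A4. None of its 23 gaps passed the larger SD of the pair.

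In the fit with 5 surrogate variables, substituting chromosome 8 lowered 3 of the 4 mRNAs, chromosome 14 lowered 2, and chromosome 4 lowered Pcx and raised G6pc. Of the 32 tests of a member in a single CSS, 7 were called at an adjusted p under 0.05 in edgeR's quasi-likelihood test with 5 surrogate variables, 6 lower and 1 higher. This test called no member in A3, A5, A6, A10 or A17, and the DESeq2 Wald test added 1 call, Pcx in A6.

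In A8, the lowest, median and highest log2 CPM of Pcx over 8 mice were 7.62, 7.96 and 8.21, against 8.52, 8.96 and 9.32 over 20 B6 mice. All 8 A8 mice lay below the lowest B6 mouse. The log2 fold change was -0.80 ± 0.11 (SE, adjusted p = 3.91e-09), a level 0.573 times that of B6. Fbp1 had 9.10, 9.39 and 9.65 in A8 and 9.65, 9.998 and 10.21 in B6, with 7 of the 8 A8 mice below the lowest B6 mouse. Its log2 fold change was -0.49 ± 0.070 (SE, adjusted p = 2.22e-08). Pck1 had 10.74, 11.16 and 11.79 in A8 and 10.28, 11.94 and 12.34 in B6, and the groups overlapped, since 1 B6 mouse was lower than every A8 mouse, while all 8 A8 mice were below the B6 median. The log2 fold change of Pck1 was -0.54 ± 0.14 (SE, adjusted p = 0.0015). G6pc did not pass, at 0.075 ± 0.22 (SE, adjusted p = 0.84), and its A8 values of 7.85, 8.46 and 9.07 covered much of the B6 range of 7.86, 8.68 and 9.74. The fitted value was positive although the unadjusted A8 mean was below that of B6. Of 12598 genes off chromosome 8, 29.5% were called in A8 and 16.5% were lower. Among the 803 of them whose log2 CPM averaged 7 or more, the abundance range of these 4 genes, 42.2% were lower, so 3 of 4 stands beside a large background.

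Chromosome 14 lowered Pcx and Fbp1. The A14 values of Pcx were 7.55, 8.24 and 8.99 over 8 mice, and 5 of them were below the lowest B6 mouse. Its log2 fold change was -0.59 ± 0.10 (SE, adjusted p = 3.17e-06). For Fbp1 the A14 values were 8.99995, 9.62 and 9.93, with 4 of 8 mice below all B6 mice, and the log2 fold change was -0.43 ± 0.066 (SE, adjusted p = 4.36e-07). Pck1 in A14 had -0.31 ± 0.13 (SE, adjusted p = 0.067) and all 8 mice below the B6 median, but did not pass. It passed without surrogate variables (-0.45, adjusted p = 0.00582) and with those from the unscaled counts (adjusted p = 0.0491). G6pc had 0.20 ± 0.20 (SE, adjusted p = 0.506). In A14, 22.3% of 12859 genes off the chromosome were called and 12.5% were lower. Of the 810 of them whose log2 CPM averaged 7 or more, 295 were lower.

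A4 was the strain in which G6pc rose. Its G6pc values were 8.62, 9.43 and 10.04 over 8 mice, with 7 of them above the B6 median and 2 above the highest B6 mouse, and the log2 fold change was 0.91 ± 0.19 (SE, adjusted p = 6.21e-04), or 1.89 times the B6 level. Pcx in A4 was lower, at -0.29 ± 0.099 (SE, adjusted p = 0.0386), with all 8 mice below the B6 median and 4 below the lowest B6 mouse. Pck1 and Fbp1 had -0.018 ± 0.13 (SE, adjusted p = 0.955) and -0.074 ± 0.064 (SE, adjusted p = 0.482). In A4, 12.7% of 12483 genes off the chromosome were called, 7.13% higher and 5.56% lower. Both A4 calls were lost with 10 surrogate variables, as was that of Pck1 in A8. In that edgeR fit, the A4 estimates were 0.58 for G6pc (adjusted p = 0.0946) and -0.0015 for Pcx (adjusted p = 0.999).

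In the other 5 single CSSs the estimates lay between -0.28 (Pck1 in A6) and 0.36 (G6pc in A17), with none called by edgeR. Pcx in A6, at -0.28 ± 0.097 (SE, adjusted p = 0.0568), was called by DESeq2 (adjusted p = 0.0469), and by edgeR without surrogate variables (0.00941) or with those from the unscaled counts (0.0139). All 8 estimates of Pcx were negative, and 7 of them had an unadjusted p under 0.05. These estimates are not independent, since all are against the same B6 mice, and B6 had the highest Pcx mean of all strains. The shares of genes off the substituted chromosome that were called there were 3.2% in A3, 0.219% in A5, 7.78% in A6, 6.41% in A10 and 3.03% in A17.

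**Figure D2:**
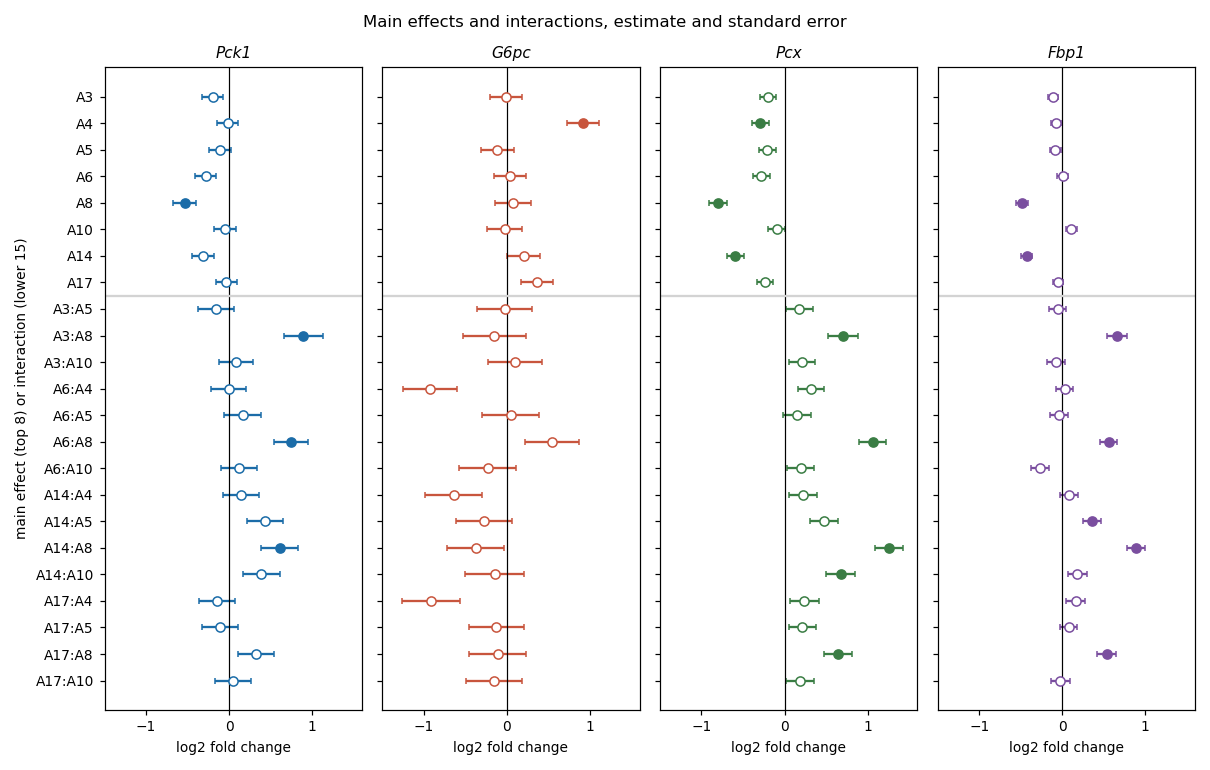
Log2 fold change (x axis) of each gene in the 8 main effects and 15 interactions (y axis). Circles are estimates, bars are ± 1 SE, and filled circles have an adjusted p under 0.05. The filled interactions all lie to the right of 0, between 0.36 and 1.26, and 11 of the 13 are in crosses with chromosome 8.

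In each double CSS that carried chromosome 8, Pcx and Fbp1 stood above the sum of the 2 single effects. Of 60 interactions tested for the 4 genes, 13 were called and all 13 were positive, 5 for Pcx, 5 for Fbp1, 3 for Pck1 and 0 for G6pc. Chromosome 8 took part in 11 of them. With the filter on low counts 10 were called, without Fbp1 in A14:A5, Pck1 in A14:A8 and Pcx in A3:A8, and with surrogate variables from the unscaled counts 16 were called. The 15 interactions share the same B6, A8 and A14 mice, so those with a common chromosome are not independent of each other.

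The largest interactions of Pcx and Fbp1 were in A14:A8, the cross of the substitutions that lowered both genes. The A14:A8 values of Pcx were 8.52, 8.62, 8.94, 8.94 and 9.07, against an expectation of 7.24 from the means of B6, A14 and A8. All 5 mice lay above it, and 1 of them above the B6 median. The interaction of Pcx was 1.26 ± 0.17 (SE, adjusted p = 1.21e-09), and A14:A8 differed from B6 by -0.14 ± 0.11 (SE, adjusted p = 0.54). The study lists Pcx in this cross among the genes it followed up by RT-qPCR, so its interaction here is not independent evidence. The A14:A8 values of Fbp1 were 9.73, 9.77, 9.92, 9.95 and 10.14, against an expectation of 8.91 from the means of B6, A14 and A8. Again all 5 mice were higher, with an interaction of 0.89 ± 0.11 (SE, adjusted p = 9.55e-11) and a difference from B6 of -0.028 ± 0.075 (SE, adjusted p = 0.897). The A14:A8 values of Pck1 were 10.90, 11.45, 11.67, 11.77 and 11.96, against an expectation of 10.77 from the means of B6, A14 and A8. Its interaction was 0.61 ± 0.22 (SE, adjusted p = 0.0231), which lost its call without replicate 5 (0.52, adjusted p = 0.0763). For G6pc, with values of 8.07, 8.52, 8.56, 8.63 and 8.80, the interaction was -0.37 ± 0.34 (SE, adjusted p = 0.44). Positive interactions were called for 18% of the 12168 genes off both chromosomes, and for 41.7% of the 773 of them whose log2 CPM averaged 7 or more.

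A6:A8 had the second largest interaction of Pcx. The 6 mice had a lowest, median and highest log2 CPM of 8.53, 8.89 and 9.02, and all were above the expectation of 7.502. The interaction was 1.06 ± 0.16 (SE, adjusted p = 3.61e-07) for Pcx, 0.75 ± 0.21 (SE, adjusted p = 0.00415) for Pck1 and 0.56 ± 0.10 (SE, adjusted p = 2.24e-05) for Fbp1. All 6 mice were also above the expectation for Pck1 and Fbp1. G6pc, with values of 8.31, 9.32 and 9.53, had 0.55 ± 0.33 (SE, adjusted p = 0.218), and it was called without surrogate variables (0.87). Against B6, its difference in A6:A8 was 0.66 ± 0.22 (SE, adjusted p = 0.0938), and 0.79 (adjusted p = 0.0454) without replicate 2. Positive calls covered 13.6% of 11886 genes. Among genes in the abundance range of the members the share was larger, with 266 positive and 133 negative calls.

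A3:A8 held 3 mice, the fewest of any cross, and the strain with the highest mean of Pck1. The Pck1 values were 12.06, 12.06 and 12.17, against an expectation of 10.97. Its interaction was 0.89 ± 0.24 (SE, adjusted p = 0.0103), the largest of Pck1 over the 15 crosses. The Pcx values of 8.57, 8.58 and 8.79 were above their expectation of 7.77 in 3 of 3 mice, with an interaction of 0.70 ± 0.18 (SE, adjusted p = 0.00905). Without replicate 3, the interactions of Pck1 (0.82, adjusted p = 0.0594) and Pcx (0.57, adjusted p = 0.119) lost their calls. Fbp1, at 9.75, 9.91 and 10.15, had 0.66 ± 0.12 (SE, adjusted p = 2.77e-04), and this call held without each mouse in turn. G6pc had -0.15 ± 0.38 (SE, adjusted p = 0.86). In A3:A8, 5.02% of 11861 genes had a positive call. Among genes in the abundance range of the members this share was larger, and their median interaction was 0.14.

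In A17:A8, Pcx had values of 8.29, 8.43, 8.52, 8.78 and 8.91 against an expectation of 7.67, and an interaction of 0.65 ± 0.17 (SE, adjusted p = 0.00848). Fbp1 had 9.68, 9.81, 9.84, 9.99 and 10.14 against 9.43, and 0.53 ± 0.11 (SE, adjusted p = 0.0012). All 5 mice were above the expectation for both genes. Pck1, with 4 of 5 mice above its expectation, had 0.33 ± 0.22 (SE, adjusted p = 0.374) and G6pc had -0.11 ± 0.34 (SE, adjusted p = 0.894). The share of positive calls was 5.01% of 11968 genes. It was larger among genes in the abundance range of the members, whose median interaction was 0.080.

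**Figure D3:**
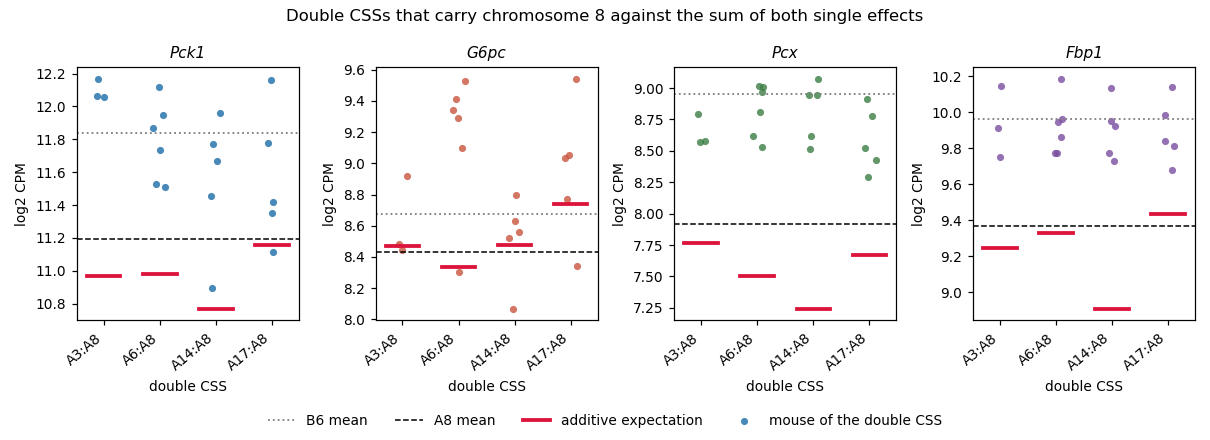
Log2 CPM (y axis) of each mouse (points) in the 4 double CSSs with chromosome 8 (x axis), with the additive expectation of each cross (red bars), the B6 mean (dotted line) and the A8 mean (dashed line). For Pcx and Fbp1, all mice of the 4 crosses lie above both their expectation and the A8 mean, while G6pc mice lie on both sides.

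Outside chromosome 8, 2 interactions were called, both with chromosome 14. Pcx in A14:A10 had values of 8.68, 8.78, 8.87, 9.01 and 9.17 against an expectation of 8.14, with an interaction of 0.67 ± 0.17 (SE, adjusted p = 0.0138). Fbp1 in A14:A5 had 9.73, 9.79, 9.95, 9.999 and 10.04 against 9.42, with 0.36 ± 0.11 (SE, adjusted p = 0.0392). All 5 mice of each cross were above the expectation. The call in A14:A5 was lost without replicate 1 or replicate 5, the highest adjusted p being 0.111. The shares of positive calls were 2.42% of 12249 genes in A14:A10 and 2.5% of 11888 in A14:A5. Among those whose log2 CPM averaged 7 or more, positive calls were 60 of 766 in A14:A10 and 71 of 767 in A14:A5. In the 9 crosses with no member called, 0.841% of tests over genes off both chromosomes were called.

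G6pc had no interaction called among 15 by edgeR or by the DESeq2 Wald test, and 2 at an unadjusted p under 0.05. Its SEs were larger than those of the other genes, between 0.33 and 0.38, so that interactions of the size seen in Fbp1 would have been hard to detect. The 2 lowest estimates were -0.93 ± 0.33 (SE, adjusted p = 0.134) in A6:A4 and -0.92 ± 0.35 (SE, adjusted p = 0.164) in A17:A4, and the third was -0.64 ± 0.34 (SE, adjusted p = 0.284) in A14:A4. All 3 crosses carry chromosome 4, whose single substitution raised G6pc, and they share the A4 mice.

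Of 60 comparisons of a double CSS with B6, 5 were called, all lower, and 17 had an unadjusted p under 0.05. All 15 estimates of Pcx were negative and 9 of them had an unadjusted p under 0.05, against 4 of 15 for Fbp1 and 2 of 15 for Pck1. In A14:A4, Pcx had 8.17, 8.28, 8.41, 8.49 and 8.52 over 5 mice, 4 of them below the lowest B6 mouse, and a log2 fold change of -0.66 ± 0.12 (SE, adjusted p = 2.42e-05). Fbp1 had 9.34, 9.46, 9.54, 9.59 and 9.81, again with 4 of 5 below every B6 mouse, and -0.42 ± 0.076 (SE, adjusted p = 3.29e-05). In this cross the interactions of Pcx and Fbp1 were 0.22 ± 0.17 (SE, adjusted p = 0.499) and 0.081 ± 0.11 (SE, adjusted p = 0.746). In A3:A5, Pck1 (values 10.99, 11.03, 11.48, 11.87 and 11.87) differed by -0.47 ± 0.15 (SE, adjusted p = 0.03) and Fbp1 (values 9.54, 9.55, 9.86, 9.86 and 9.86) by -0.25 ± 0.076 (SE, adjusted p = 0.0157), although none was called in A3 or in A5. Pcx in A17:A8 was at -0.39 ± 0.12 (SE, adjusted p = 0.0332). Leaving out 1 mouse at a time, Pck1 in A3:A5 lost its call without replicate 2, 4 or 5 (highest adjusted p = 0.181), Fbp1 in A3:A5 without 2 or 4 (0.0986) and Pcx in A17:A8 without 1, 2 or 5 (0.158), whereas both calls in A14:A4 held. The same 3 calls were lost with 0 and with 10 surrogate variables, and that of Pck1 in A3:A5 also with the filter on low counts. The shares called lower were 6.62% in A14:A4, 6.42% in A3:A5 and 2.31% in A17:A8, and 1.45% of tests were called in either direction in the 12 other crosses. For G6pc, 0 of 15 were called by edgeR or DESeq2 and 2 had an unadjusted p under 0.05, and with 10 surrogate variables edgeR called A6:A8 (0.81, adjusted p = 0.0185). All comparisons against B6 share the same 20 mice.

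Over all 23 CSSs at once, the 4 genes differed between strains, with adjusted p-values from edgeR of 3.01e-12 for Fbp1, 1.07e-08 for Pcx, 0.00377 for G6pc and 0.0352 for Pck1, where 51.4% of all 13289 genes were called. The joint test of the 15 interactions called Fbp1 (4.58e-09), Pcx (8.46e-07) and Pck1 (0.0331), beside 27.5% of all genes, and G6pc had an adjusted p of 0.115. The calls of Pck1 were lost with 10 surrogate variables and with a filter on low counts. The part of the strain differences that an additive fit left unexplained was 0.787 for Pck1, 0.720 for Pcx, 0.691 for Fbp1 and 0.481 for G6pc, against a median of 0.577 over the genes called in the joint strain test. This proportion has no error of its own and also takes in the noise of the strain estimates.

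The share of reads from mitochondrial genes moved with these effects. It was 9.42% to 20.8% (median 14.6%) in the 8 A8 mice and 9.31% to 18.5% (median 13.6%) in the 8 A14 mice, against 6.77% to 11.6% (median 8.53%) in B6. In A14:A8 it was 6.9% to 9.58% (median 8.12%) and in A6:A8 7.47% to 8.47% (median 7.89%), and the medians of the 22 strains other than A8 and A14 lay between 6.96% and 10.1%. With this percentage as a covariate, an alternative chosen after seeing the data, all 7 main-effect calls were kept and 5 of the 13 interactions were, namely those of Pcx in A6:A8 and A14:A8 and of Fbp1 in A3:A8, A6:A8 and A14:A8. The same 5 were the interactions kept with 10 surrogate variables. The interaction of Pcx in A14:A8 was 0.999 with the covariate, and that of Fbp1 was 0.75. Pck1 kept no interaction and no joint call in either of those fits.

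Hepatocyte markers fell along with these genes in A8. Of the 5 hepatocyte markers in the table (Alb, Apoa1, Ttr, Fgb and Apob), 4 were lower in A8 and 3 had a positive interaction in A14:A8. The shares over genes of high abundance off the substituted chromosomes were 42.2% and 41.7%. The summed level of these markers was 52717 to 109275 (median 78249) CPM in A8 and 58407 to 120573 (median 84729) in A14. It was 95447 to 149080 (median 113021) in B6 and 94743 to 120015 (median 111592) in A14:A8. All 5 periportal markers, genes of the hepatocytes in which gluconeogenesis is known to be strongest, were lower in A8 and had a positive interaction in A14:A8. Their sum was 2208 to 3403 (median 2439) CPM in A8 and 3048 to 5055 (median 4042) in B6. Of 5 pericentral markers, 0 were called in A8 by edgeR, 1 had an unadjusted p under 0.05 and DESeq2 called 0, and 1 was called in A14:A8, with sums of 5705 to 8253 (median 5984) CPM in A8 and 4875 to 11514 (median 8833) in B6. Of 11 markers of Kupffer, endothelial, stellate and duct cells and leukocytes, 2 were higher and 1 lower in A8 and 5 had a negative interaction in A14:A8, with sums of 607.2 to 812.5 (median 688.6) CPM in A8, 633.2 to 778.4 (median 694.5) in A14, 565.8 to 712.3 (median 631.0) in B6 and 542.0 to 623.2 (median 581.9) in A14:A8. Of 4 markers of muscle, pancreas and red cells, 1 was higher in A8 and 1 had a negative interaction in A14:A8, with sums of 93.8 to 324.2 (median 180.2) CPM in A8 and 72.9 to 539.0 (median 180.3) in B6. No marker in the table was at 0 in every mouse, Epcam and Myh4 were at 0 in some, and Tf, Krt19, Acta1, Prss2 and Adipoq were not among its genes. Of all genes off chromosome 8, 29.5% were called in A8 and 16.5% were lower, so the remaining calls were higher. Of 773 abundant genes off both chromosomes, 145 had a negative interaction in A14:A8. Most markers of cells other than hepatocytes were less abundant than these genes, and the negative share over all genes was not computed. The counts of these markers alone therefore cannot tell a shift of cell types from the background. The part of the markers of any list in the results was not tested. In bulk liver, fewer cells of a type and less RNA per cell cannot be told apart.

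Of 23 other enzymes and carriers of the pathway in the table, 18 were lower, 1 was higher and 4 were not called in A8. Of genes off chromosome 8, 16.5% were lower (42.2% of abundant ones). The median log2 fold change of the list was -0.38, against -0.01 over all genes. Some listed genes, such as Got2, lie on a chromosome substituted in these strains, whereas the shares given here are over genes off them. In A14, 17 were lower, with a median of -0.30, beside 12.5% of genes off chromosome 14 (295 of 810 abundant ones). In A14:A8, 18 had a positive and 1 a negative interaction, beside 18% of all genes positive (41.7% of abundant genes), with a median of 0.70. In A6:A8, 15 were positive and 1 negative, beside 13.6% of all genes positive, with a median of 0.43. The positive share of abundant genes in A6:A8 was larger, with 266 positive and 133 negative calls and a median of 0.12. The medians over all genes lay within 0.03 of 0 in every effect under both scalings. Eno1, an enolase, had -0.53 ± 0.079 (SE, adjusted p = 6.48e-08) in A8, 1.03 ± 0.12 (SE, adjusted p = 3.45e-11) in A14:A8 and 0.53 ± 0.12 (SE, adjusted p = 3.14e-04) in A6:A8. Got2, the mitochondrial aspartate aminotransferase, lies on chromosome 8 itself, so that its effects there are in cis. Its values were -0.55 ± 0.067 (SE, adjusted p = 1.26e-11) in A8, 0.96 ± 0.11 (SE, adjusted p = 1.62e-12) in A14:A8 and 0.74 ± 0.10 (SE, adjusted p = 1.25e-08) in A6:A8.

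**Figure D4:**
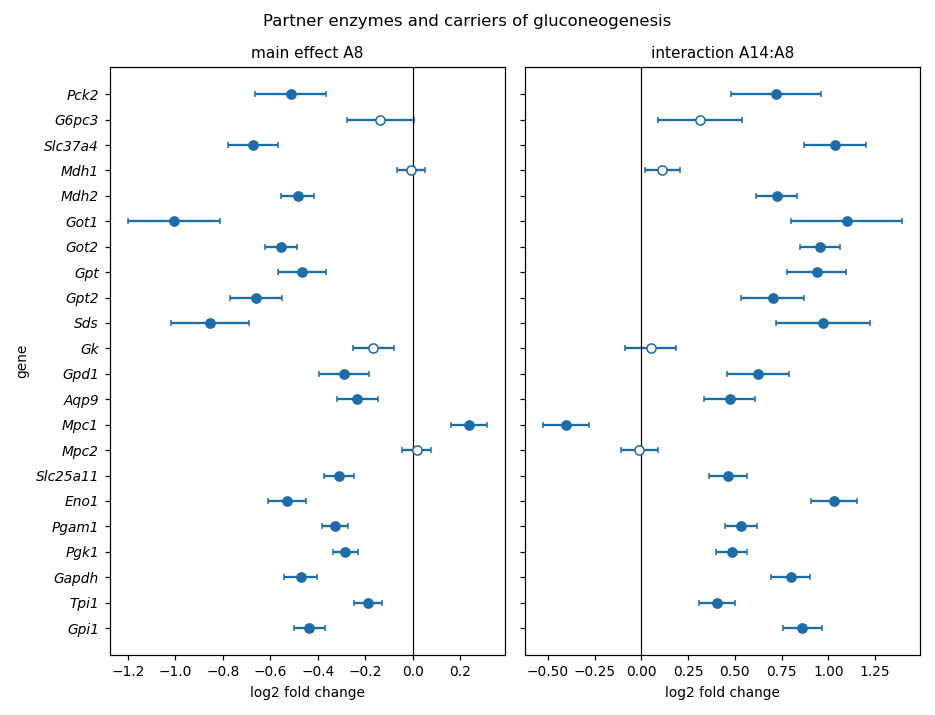
Log2 fold change (x axis) of partner enzymes and carriers (y axis) in the A8 main effect (left) and the A14:A8 interaction (right). Circles are estimates, bars are ± 1 SE, and filled circles have an adjusted p under 0.05. All filled circles but that of Mpc1, a subunit of the mitochondrial pyruvate carrier, lie below 0 in A8 and above 0 in A14:A8.

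Of the 13 genes of the opposing steps (glycolysis and pyruvate oxidation), 4 were lower in A8 and none higher, with a median of -0.14, and 6 had a positive and 1 a negative interaction in A14:A8, with a median of 0.19. Over all genes off the substituted chromosomes, the shares lower in A8 and positive in A14:A8 were 16.5% and 18%. Over abundant genes they were 42.2% and 41.7%, but all 13 genes of this list averaged below the limit of 7 that defines those, up to 6.97 for Pdha1. Pfkfb1, which sets the level of fructose-2,6-bisphosphate in liver, had -0.40 ± 0.10 (SE, adjusted p = 0.00161) in A8 and 0.35 ± 0.16 (SE, adjusted p = 0.0893) in A14:A8. Dlat, a subunit of pyruvate dehydrogenase, had -0.32 ± 0.056 (SE, adjusted p = 3.26e-06) in A8 and 0.49 ± 0.088 (SE, adjusted p = 3.19e-06) in A14:A8. Pdk2, a kinase that inhibits pyruvate dehydrogenase, had -0.38 ± 0.096 (SE, adjusted p = 0.00104) in A8 and 0.44 ± 0.15 (SE, adjusted p = 0.0159) in A14:A8. In A6:A8, the interactions of Pfkfb1, Dlat and Pdk2 were 0.45 ± 0.16 (SE, adjusted p = 0.0232), 0.30 ± 0.083 (SE, adjusted p = 0.00374) and 0.45 ± 0.14 (SE, adjusted p = 0.0136).

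Of 27 regulators of gluconeogenic transcription, 7 were lower and 1 higher in A8, with a median of -0.12, and 6 had a positive and 1 a negative interaction in A14:A8, with a median of 0.17. These counts were near the shares over all genes off the substituted chromosomes, 16.5% lower in A8 and 18% positive in A14:A8. Hnf4a, a nuclear receptor of hepatocytes, had -0.32 ± 0.084 (SE, adjusted p = 0.00181) in A8 and an interaction of 0.41 ± 0.13 (SE, adjusted p = 0.0114) in A14:A8. Stat3, a factor known to repress gluconeogenic genes, had -0.57 ± 0.090 (SE, adjusted p = 2.35e-07) in A8 and 0.68 ± 0.14 (SE, adjusted p = 5.35e-05) in A14:A8. Nr3c1, the glucocorticoid receptor, went the other way, with 0.25 ± 0.053 (SE, adjusted p = 9.22e-05) in A8 and -0.24 ± 0.085 (SE, adjusted p = 0.0176) in A14:A8. Their interactions in A6:A8 were 0.41 ± 0.12 (SE, adjusted p = 0.00927), 0.79 ± 0.13 (SE, adjusted p = 3.75e-06) and -0.37 ± 0.080 (SE, adjusted p = 1.65e-04).

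With all strains pooled, Pck1 varied with G6pc and Pcx with Fbp1 among mice of the same genotype. Log2 CPM minus the strain mean was compared over all mice of the 24 strains for the 6 pairs of genes, with 100000 two-sided permutations within strains and the Benjamini-Hochberg adjustment over 6 pairs. For Pck1 and G6pc, r = 0.381 (adjusted p = 1.80e-04) and rho = 0.481 (adjusted p = 6.00e-05, from the smallest p that the permutations can give). Without the 2 mice farthest from the median of Pck1, r was 0.531. For Pcx and Fbp1, r = 0.370 (adjusted p = 8.10e-04) and rho = 0.274 (adjusted p = 0.00696), and r was 0.290 without the 2 mice farthest from the median of Pcx. The pair of G6pc and Fbp1 had r = 0.245 (adjusted p = 0.0165) and rho = 0.224 (adjusted p = 0.0186), with 0.247 without 2 mice, and Pck1 and Pcx had r = 0.201 (adjusted p = 0.0326) and rho = 0.241 (adjusted p = 0.0119), with 0.288 without 2 mice. Neither G6pc with Pcx, at r = 0.166 (adjusted p = 0.0816) and rho = 0.134 (adjusted p = 0.128), nor Pck1 with Fbp1, at r = 0.131 (adjusted p = 0.126) and rho = 0.134 (adjusted p = 0.128), passed the threshold. Without 2 mice these were 0.169 and 0.176.

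**Figure D5:**
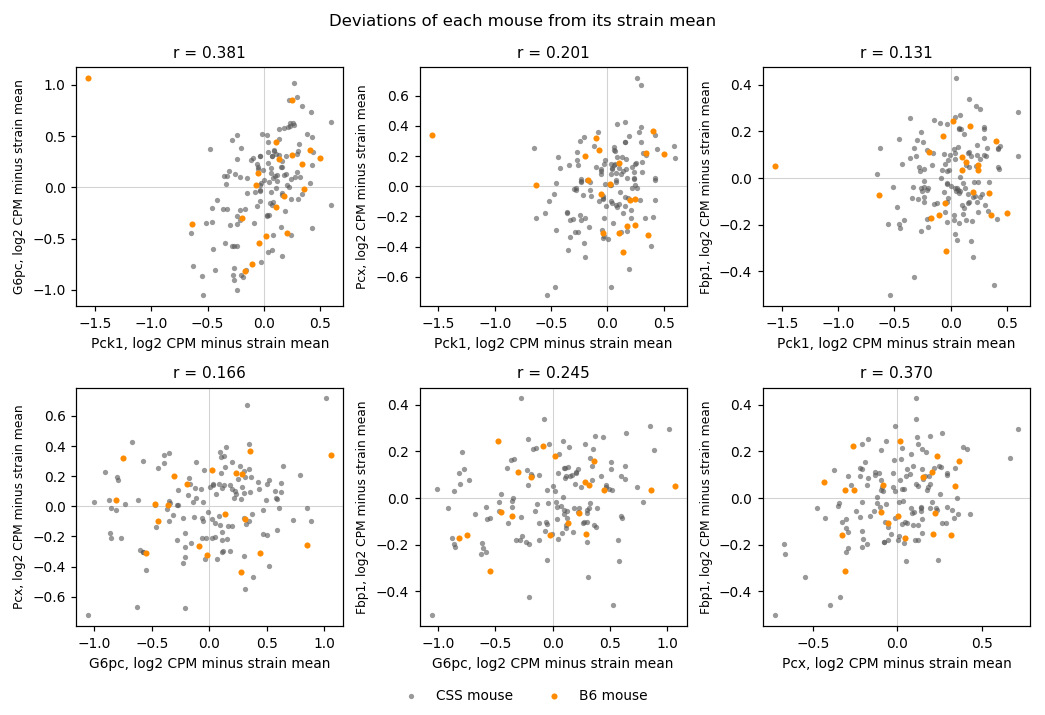
Log2 CPM minus the strain mean of one gene (x axis) against another (y axis) in all mice, for the 6 pairs of genes. Each point is 1 mouse, with B6 mice in orange and CSS mice in grey, and the r in each title is over all mice. The cloud is longest along the diagonal for Pck1 with G6pc and for Pcx with Fbp1, and 1 B6 mouse lies far to the left in the Pck1 panels.

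Within the 10 strains of at least 6 mice taken singly, r of Pck1 and G6pc was positive in 9 and ran from -0.13 in B6 to 0.94. In B6, where the Pck1 value of 1 mouse lay far below the others, rho was 0.411, and r was 0.621 without the 2 mice farthest from the median. The r of Pcx and Fbp1 was positive in 8 of the 10 strains, from -0.28 in A5 to 0.81 in A14, and was 0.14 in B6. A14 also had the largest SD of any strain for both genes, 0.57 for Pcx and 0.35 for Fbp1. The pooled r without A14 was not computed. Over 60 such comparisons, 0 passed by a permutation test after adjustment (exact for strains of up to 8 mice) and 13 had an unadjusted p under 0.05. Over the 24 strain means, given as a description, r was 0.822 for Pcx and Fbp1, 0.639 for Pck1 and Fbp1 and 0.608 for Pck1 and Pcx, and between 0.046 and 0.216 for G6pc with the others. Without A8 these were 0.689, 0.445 and 0.359, and between -0.21 and 0.083. The strain means share the substituted chromosomes.

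Depth did not follow the 4 genes closely within strains, with r between -0.11 and 0.11 against the log2 total count. The mitochondrial percentage had an r of -0.39 with Pcx, -0.27 with Pck1, -0.15 with G6pc and -0.12 with Fbp1. Summed pericentral, periportal and hepatocyte markers had an r of 0.561, 0.489 and 0.471 with Pcx, and of 0.247, 0.4657 and 0.359 with Fbp1. Their r with Pck1 was 0.176, 0.221 and 0.097. These r are descriptions, since both values of a pair come from the same library.

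The genes whose levels followed each member most closely among mice of one strain were looked up as a description. Over 9615 genes whose log2 CPM averaged 2 or more, the genes most like Pck1 included Slc38a2, an amino acid transporter (r = 0.6252), and Cebpb, a leucine zipper factor of the C/EBP family (0.608). G6pc was most like Sgk1, a kinase induced by glucocorticoids (0.691), Slc25a25, a mitochondrial carrier of ATP and phosphate (0.672), and Sik1, a salt-inducible kinase (0.648). Pcx was most like Got2 (0.802), Abat, the transaminase of GABA (0.793), and Agpat3, an acyltransferase of phospholipid synthesis (0.777). Fbp1 was most like Marc2, a mitochondrial reductase (0.724), Tst, a sulfurtransferase (0.698), and Apof, an apolipoprotein (0.682). Among the same genes, Pck1 ranked 51 from the top for G6pc, above 99.5% of them, and Fbp1 ranked 956 for Pcx, above 90.1%. Of the other pairs that passed, Pck1 was above 74.6% of the genes for Pcx, and Pcx above 87.7% for Pck1. G6pc was above 82.9% for Fbp1, and Fbp1 above 96.1% for G6pc. The median r over all genes was between 0.010 and 0.021, and genes of one mouse are not independent replicates.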

How the data were processed

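Liver RNA of 154 mice was sequenced as stranded total RNA libraries with single-end reads. The authors ran TopHat2 against mm10 with GENCODE vM7 and mapped the remaining reads to a genome rebuilt with A/J variants. HTSeq gave the number of reads of each gene, and sparsely covered genes were dropped. The deposited values are raw counts per gene, and each gene of the table met a count of 15 in at least 25.3% of the mice. Mice were grouped by the strain in their labels.

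Counts were normalised by TMM in edgeR 4.0.16 (R 4.3.3), and levels are log2 CPM with a prior count of 2. One quasi-likelihood model over all 154 mice held the 8 main effects, 15 interactions and 5 surrogate variables (sva 3.50.0), fitted on all 13289 genes. P-values were adjusted by Benjamini-Hochberg within each effect, separately for genes on and off the substituted chromosomes, with a threshold of 0.05. SE is the log2 fold change divided by the square root of F. The 47 genes not placed by GENCODE vM21 were treated as off the chromosomes.

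Alternatives were 0 and 10 surrogate variables, surrogate variables from unscaled counts, DESeq2 1.42.0 size factors and Wald test, a filter of 15 counts in 75% of the mice, another edgeR setting, and leaving out each mouse of the double CSSs with the surrogate variables and dispersions of the full set kept. The model was tested on simulated data: of 50 genes changed by 0.5 (log2), 47 were recovered in A8 and 44 in A14:A8. Apart from a small part of the genes that was changed, the simulated mice differed only in library size and random spread. They held no variation of the kind that surrogate variables take up. The simulation therefore cannot show how calls depend on the number of surrogate variables. Correlations used Python 3.11.15 and scipy 1.17.1. Beside the members, the text names the 3 genes most like each member, and the 3 genes of each pathway list called in the most effects. Some genes that this rule names are not reported here, and they stay in the counts and medians of their lists. The members and lists were chosen with earlier results of these data known. Sequencing batches were not given in the sources used here, so no fit had a batch term.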

Additional observations from a re-analysis of the deposited data

Results flagged for a closer look

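In 4 of 88 sets of 4 to 10 mice of one strain, 1 mouse stood far from the rest, where chance gives about 1 in 20. G6pc in A6:A8 replicate 2 was lowest at 8.31 log2 CPM, its gap to the next mouse (9.10) being 0.648 of the range up to 9.53, and without it the difference of G6pc from B6 in A6:A8 was 0.79 (adjusted p = 0.0454, edgeR). Pcx in A3:A5 replicate 2 was lowest at 8.01, with a gap of 0.720 of the range (next mouse 8.74, highest 9.03). Fbp1 in A4 replicate 1 was lowest at 9.39, with a gap of 0.596 of the range (next 9.78, highest 10.05). Fbp1 in A6:A10 replicate 1 was highest at 9.93, with a gap of 0.792 of the range (next 9.79, lowest 9.75).

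The effect of one chromosome differed with the other in 13 tests of an interaction term by edgeR. For Pcx the log2 interactions were 0.70 in A3:A8, 1.06 in A6:A8, 1.26 in A14:A8, 0.65 in A17:A8 and 0.67 in A14:A10. For Fbp1 they were 0.66 in A3:A8, 0.56 in A6:A8, 0.89 in A14:A8, 0.53 in A17:A8 and 0.36 in A14:A5. For Pck1 they were 0.89 in A3:A8, 0.75 in A6:A8 and 0.61 in A14:A8.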

How the results depend on the processing

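All called effects of the 4 genes kept their sign under every alternative run, but some lost most of their size. With 10 surrogate variables, Pcx in A4 was at -0.0015 against -0.29 with 5. Its interactions were 0.24 against 0.70 in A3:A8 and 0.21 against 0.65 in A17:A8. That of Fbp1 in A17:A8, which also lost its call, was 0.45 against 0.53. With 10 surrogate variables, calls fell to 4 of 7 main effects and 5 of 13 interactions, and 3 double CSS comparisons with B6 were called in place of 5. With the mitochondrial percentage as a covariate, chosen after seeing the data, 5 interactions were called. Double CSS calls numbered 2 with 0 surrogate variables and 2 at a threshold of 0.01. Leaving out single mice of the double CSSs gave 11 to 13 interactions and 3 to 6 double CSS calls. The interaction proportion with 0 and with 10 surrogate variables was 0.917 and 0.664 for Pck1, 0.471 and 0.532 for G6pc, 0.796 and 0.594 for Pcx, and 0.732 and 0.726 for Fbp1. The r of Pck1 and Fbp1 was 0.234 once surrogate variables were regressed out, and then passed (adjusted p = 0.00714, permutation test). With 10 surrogate variables, 12 partner enzymes were called in A8, 6 in A14, 3 in A6:A8 and 11 in A14:A8. The same setting called 1 gene of the opposing steps in A8 and 1 in A14:A8, 2 regulators in A8 and 1 in A14:A8, 2 hepatocyte markers in A8, 2 non-hepatocyte markers in A14:A8 and 0 markers of neighbouring tissues in A8. With 0 surrogate variables, calls in A8 were 13 regulators, 2 pericentral, 6 non-hepatocyte and 2 neighbouring tissue markers. With the filter on low counts, calls in A14:A8 were 4 genes of the opposing steps, 3 regulators, 0 pericentral, 2 non-hepatocyte and 2 neighbouring tissue markers. The cause of these shifts was not tested. No paired analysis was possible because replicate numbers follow only the order of the samples and tie no mice across strains. Every mouse had at least 1271 counts for each member, so the spread between mice was larger than counting error.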
